A study of Homo sapiens with 4 samples.

Results

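The genes described here are 10 angiogenic growth factors and receptors: the vascular endothelial growth factors VEGFA, VEGFB and VEGFC, the platelet-derived growth factor chains PDGFA, PDGFB and PDGFC, the co-receptors NRP1 and NRP2, the angiopoietin-like protein ANGPTL4 and the VEGF receptor FLT1. They were taken by name from the deposited expression table, which lists 55764 gene names, and all 10 were found. The samples are 4 bulk RNA libraries of TE5 cells, an established human line of squamous carcinoma of the oesophagus. In 2 libraries the cells stably carried a lentiviral vector that expresses human ETS1, with CMV as the promoter per the labels, and in the 2 Control libraries they carried its empty backbone. Cells of both groups went through infection and selection, and the labels of the Control libraries give the genotype as WT. The vectors are as the series' design text gives them; the protocol speaks of both transfection and infection and also names the plasmid pLKO.1 TRC, so which backbone the Control cells carried is not certain. The labels do not say whether each library is a separate infection or culture, or whether the cells are a clone or a mixed population, so p-values measure only the spread between these libraries.

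VEGF proteins are secreted dimers that bind receptor tyrosine kinases, chiefly on endothelial cells, and drive the growth of blood and lymphatic vessels. FLT1 binds VEGFA, VEGFB and PGF, KDR carries most of the growth signal of VEGFA, and FLT4 is the main receptor of VEGFC and VEGFD. The neuropilins NRP1 and NRP2 hold VEGF or class 3 semaphorins and pair with VEGF receptors or plexins. PDGF chains act on PDGFRA and PDGFRB, which are found mostly on fibroblasts, pericytes and smooth muscle. ANGPTL4 is a secreted inhibitor of lipoprotein lipase that is induced by hypoxia and by PPAR nuclear receptors. ETS1 is a transcription factor that binds DNA around a GGAA core and is known as a regulator of angiogenic genes in endothelial cells.

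RefSeq promoter windows (GRCh38.p14) were matched by symbol for 6 of the 10 genes, with 9 windows in all. VEGFA, PDGFB, PDGFC and NRP1 had no entry. The 250 bases before each start were searched on both strands for GGAA, the ETS core, for CCGGAAGT, a longer ETS1 form that contains GGAA, and for ACGTG, the core of the hypoxia response element, which does not overlap the others in its letters. Printed below are 4 genes with a single window: FLT1, NRP2 and VEGFB, which were lower in the ETS1 libraries, and VEGFC, which did not pass the test. Each line runs 5′ to 3′ on the gene's strand, stops short of any GENCODE 29 exon, and has GGAA, or TTCC where the core lies on the other strand, in capitals. The stretches are chr13:28495146-28495378 (minus strand) for FLT1, chr2:205682251-205682499 (plus strand) for NRP2, chr11:64234353-64234537 (plus strand) for VEGFB and chr4:176792923-176793172 (minus strand) for VEGFC.
FLT1: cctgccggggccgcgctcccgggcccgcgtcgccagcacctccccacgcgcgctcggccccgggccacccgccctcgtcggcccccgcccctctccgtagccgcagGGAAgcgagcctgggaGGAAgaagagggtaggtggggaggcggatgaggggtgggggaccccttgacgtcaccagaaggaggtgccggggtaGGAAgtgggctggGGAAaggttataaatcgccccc
NRP2: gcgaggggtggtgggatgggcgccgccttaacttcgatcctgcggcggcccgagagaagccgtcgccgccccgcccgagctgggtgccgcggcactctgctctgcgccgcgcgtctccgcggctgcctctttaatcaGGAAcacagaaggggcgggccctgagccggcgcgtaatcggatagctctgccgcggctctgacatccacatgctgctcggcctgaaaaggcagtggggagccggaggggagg
VEGFB: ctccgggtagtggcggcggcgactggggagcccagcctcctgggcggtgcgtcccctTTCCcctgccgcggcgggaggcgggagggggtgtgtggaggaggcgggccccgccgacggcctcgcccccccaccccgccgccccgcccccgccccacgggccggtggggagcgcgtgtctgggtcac
VEGFC: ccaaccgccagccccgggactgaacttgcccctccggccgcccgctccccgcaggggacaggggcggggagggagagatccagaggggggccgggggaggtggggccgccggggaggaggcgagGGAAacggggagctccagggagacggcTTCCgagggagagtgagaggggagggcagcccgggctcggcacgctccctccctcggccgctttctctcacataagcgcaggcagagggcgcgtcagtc
FLT1 held 4 GGAA cores, VEGFC held 2, and NRP2 and VEGFB held 1 each. The 4 windows of PDGFA held between 1 and 3, and that of ANGPTL4 held 2. Of all 35116 RefSeq windows of this length, 92.7% hold at least 1 GGAA, so its presence is common to nearly all promoters. CCGGAAGT was in none of the 9 windows and is in 3.42% of all. ACGTG was found in the window of ANGPTL4, at position -234 from its start on the reverse strand, and is in 18.5% of all. A match describes the letters only and was not tested as a binding site.

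The total reads assigned to genes, recovered from the tables, came to 40505238 and 44281805 for Control against 57505840 and 56737036 for ETS1, a 1.35-fold difference in the means. ETS1 itself had 142 and 161 reads against 756 and 756, or 0.491 and 0.509 FPKM against 1.84 and 1.87 FPKM. FPKM is the number of fragments scaled to gene length and to library size. The fit was limma on log2(FPKM + 1) over the 14306 genes whose mean FPKM was 1 or more, and a gene was called at an adjusted p (Benjamini-Hochberg over all of these) under 0.05. With 2 libraries against 2, the smallest two-sided p of an exact permutation test of a single gene is 0.333. That value was reached by each of the 8 tested genes described next.

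Of the 10 genes, 8 reached that filter, and ANGPTL4 and PDGFB did not. Among the 8, limma called 2 higher (VEGFA and PDGFC) and 4 lower (NRP2, PDGFA, FLT1 and VEGFB), while VEGFC and NRP1 did not pass. Calls were common in this comparison: 59.1% of all tested genes were called, with 30.7% higher and 28.4% lower, against 6 of 8 here. The groups did not overlap for any of the 8, with 3 higher and 5 lower, where 82.0% of all tested genes did not overlap. The median log2 change of the 8 was -0.097, beside 0.016 for all tested genes, and their median absolute change was 0.20, the same to 2 decimals as that of all tested genes. The same 2 and 4 counts came from voom on recovered reads, where 63.6% of all genes were called, and from the authors' deposited table, where 51.2% have an adjusted p under 0.05. None of the 8 changed by 2-fold or more in FPKM.

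**Figure D1:**
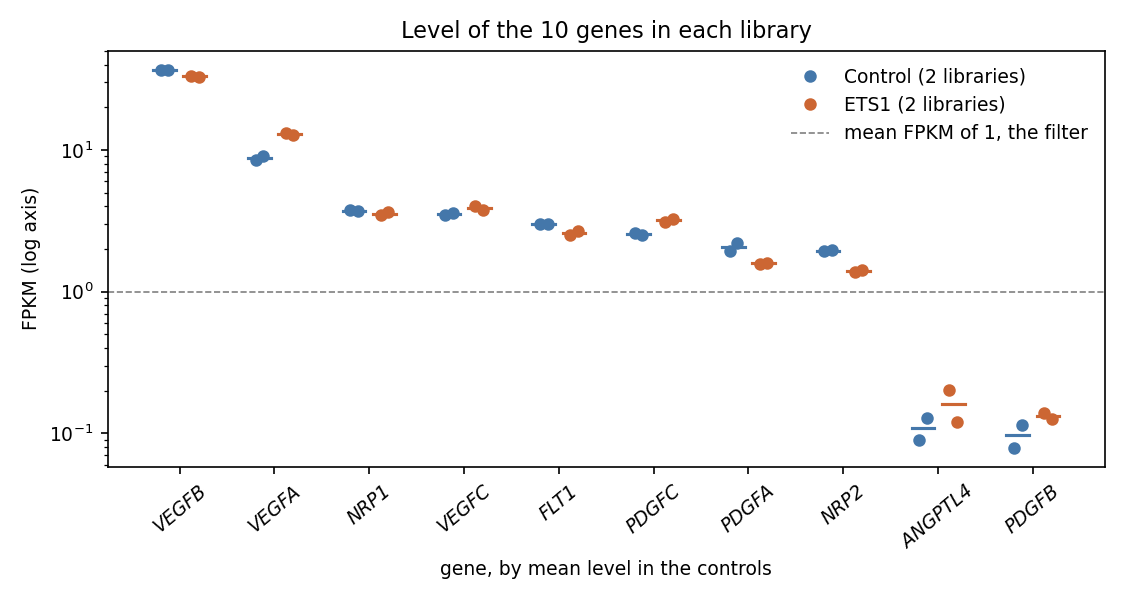
FPKM on a log axis of each of the 10 genes in the 2 Control and 2 ETS1 libraries; points are libraries and short bars are group means. VEGFB is the most abundant per the authors' gene length, at 33.0 to 36.9 FPKM. VEGFA stands apart between groups, and ANGPTL4 and PDGFB lie far under the dashed filter line.

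VEGFA, the main inducer of vessel sprouting (chromosome 6, 43770184 to 43786487, plus strand, GENCODE 29 on GRCh38), had 8.53 and 9.07 FPKM in the Control libraries and 13.2 and 12.7 FPKM in the ETS1 libraries. These values came from 4984 and 5794 reads against 10930 and 10404 reads. Both ETS1 libraries lay above both Control libraries, with a gap of 3.64 FPKM between the groups. The mean rose from 8.80 ± 0.382 to 12.9 ± 0.328 FPKM (SD, n = 2 each), which is 1.47 times the Control mean. As a difference of log2(FPKM + 1) this was 0.51 (standard error 0.042, 95% interval 0.40 to 0.62, limma adjusted p 0.00106). Its absolute change was at percentile 89.5 of the tested genes. VEGFA was called higher under each of the 16 alternatives that were run, with changes from 0.41 to 0.56. In the authors' deposited table its log2 fold change is 0.53 with an adjusted p of 1.2e-25.

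VEGFB, which binds FLT1 and NRP1 and is linked to fatty acid handling and survival more than to vessel growth (chromosome 11, 64234538 to 64238793, plus strand), was the most abundant of the 10 per the authors' gene length. It had 36.4 and 36.9 FPKM in the Control libraries and 33.2 and 33.0 FPKM in the ETS1 libraries. Both ETS1 values were lower by a small margin, from a mean of 36.7 ± 0.338 to 33.1 ± 0.162 FPKM (SD, n = 2 each), and fell by 9.73%. The log2 change was -0.14 (standard error 0.026, limma adjusted p 0.00856). The call was lost when a trend of the changes with gene length and GC content was removed (-0.0012, adjusted p 0.972, an alternative chosen after seeing the data) and under quantile normalization (-0.032, adjusted p 0.335). Without ETS1 replicate 1 or 2 the change was about the same, at -0.15 and -0.14, and the adjusted p was 0.0534 and 0.0652. Such a fit leaves a group with 1 library, which is assumed to vary like the 2 of the other group, so a call lost there does not show a smaller change.

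VEGFC, the main growth factor of lymphatic vessels (chromosome 4, 176683538 to 176792727, minus strand), had 3.51 and 3.62 FPKM in the Control libraries and 4.00 and 3.78 FPKM in the ETS1 libraries. The ETS1 values were above both Control values by 0.162 FPKM, and the 2 ETS1 libraries were further apart than that. The log2 change of 0.099 (95% interval -0.019 to 0.22) did not pass, with a limma adjusted p of 0.119. It was called in the fit with the length and GC trend removed (0.18, adjusted p 0.0172). Among the 48 nearest tested coding genes on its chromosome, 41 had a positive change, with a median of 0.15. With that local median removed the change of VEGFC was -0.052 (adjusted p 0.341).

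Ratios between the ligands differed between the groups. The ratio of VEGFA to VEGFB in FPKM was 0.234 and 0.246 in Control and 0.397 and 0.385 with ETS1. Both ETS1 ratios were higher, by 1.63-fold in the mean. The ratio of VEGFA to VEGFC went from 2.43 and 2.51 to 3.30 and 3.36. A ratio within a library shows unequal change and does not say which gene moved.

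Levels set between genes depend on the length used for the scaling. The authors' length for VEGFA, recovered from the tables, was 14427 bases, while its longest protein-coding transcript in GENCODE 29 has 3535 bases, so the ratio was 4.08. That ratio was between 1.07 and 1.95 for the other 9 genes. Per the authors' length, the order in the Control libraries was VEGFB, VEGFA, NRP1, VEGFC, FLT1, PDGFC, PDGFA, NRP2, ANGPTL4 and PDGFB. The ranges of the libraries overlapped for the neighbours PDGFA and NRP2 and for ANGPTL4 and PDGFB only. In the ETS1 libraries VEGFC stood above NRP1 and PDGFC above FLT1, and only the ranges of ANGPTL4 and PDGFB overlapped. When FPKM was rescaled to the longest coding transcript, an alternative chosen after seeing the data, VEGFA reached 35.9 ± 1.56 in the Control libraries and 52.8 ± 1.34 in the ETS1 libraries (SD, n = 2 each). VEGFB had 40.7 ± 0.375 and 36.7 ± 0.180 on that scale, so VEGFA was the most abundant in the ETS1 libraries and VEGFB in the Control libraries. The tables hold gene totals, so the splice forms of VEGFA and the soluble forms of FLT1 and the neuropilins were not separated here.

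PDGFA, a chain that signals through PDGFRA (chromosome 7, 497258 to 520296, minus strand), had 1.95 and 2.20 FPKM in the Control libraries and 1.57 and 1.59 FPKM in the ETS1 libraries. The Control libraries were the more spread of the groups, and both ETS1 libraries lay under them. The mean fell from 2.08 ± 0.179 to 1.58 ± 0.0121 FPKM (SD, n = 2 each), which is 0.763 times the Control mean, from 327 and 404 reads against 375 and 374. The log2 change was -0.25 (standard error 0.064, limma adjusted p 0.0238), and -0.39 by voom. The call was lost with no filter on low values (adjusted p 0.0869). It was also lost without Control replicate 2, ETS1 replicate 1 or ETS1 replicate 2 (adjusted p 0.081, 0.0905 and 0.086), with changes of -0.19, -0.25 and -0.26.

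PDGFC, a chain that needs cleavage of its CUB domain before it binds PDGFRA (chromosome 4, 156760454 to 156971394, minus strand), had 2.58 and 2.53 FPKM in the Control libraries and 3.11 and 3.25 FPKM in the ETS1 libraries. Both ETS1 libraries were higher, and the mean rose from 2.56 ± 0.0414 to 3.18 ± 0.0991 FPKM (SD, n = 2 each), or by 24.6%. The log2 change was 0.23 (standard error 0.046, limma adjusted p 0.0108). Of its 50 nearest tested coding genes, 40 also had a positive change, with a median of 0.16. With that local median removed the change was 0.071 (adjusted p 0.198). The call was lost as well with the length and GC trend removed (0.12, adjusted p 0.0629) and without ETS1 replicate 2 (0.21, adjusted p 0.0726). The ratio of PDGFA to PDGFC was 0.754 and 0.872 in Control and 0.506 and 0.489 with ETS1, lower in both.

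PDGFB, the chain that recruits pericytes to vessels (chromosome 22, 39223359 to 39244751, minus strand), was near the limit of detection. It had 12 and 19 reads in Control against 30 and 27 with ETS1, or 0.0790 and 0.114 FPKM against 0.139 and 0.127 FPKM. The ETS1 values were the higher ones, but the pooled rate ratio of 1.36 had an exact (Clopper-Pearson) 95% interval of 0.866 to 2.19, which covers counting error only and not the spread between libraries. A difference was thus not detectable at this depth. PDGFB was not tested in the fit, and with no filter its change was 0.047 with a limma adjusted p of 0.343.

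The receptor FLT1, also called VEGF receptor 1 and known as a decoy that takes up VEGFA (chromosome 13, 28300344 to 28495145, minus strand), had 3.02 FPKM in both Control libraries and 2.50 and 2.70 FPKM in the ETS1 libraries. The Control libraries were nearly equal and both ETS1 libraries lay under them, from 982 and 1076 reads against 1154 and 1230. The mean fell by 14.0%, from 3.02 ± 0.00485 to 2.60 ± 0.142 FPKM (SD, n = 2 each). The log2 change was -0.16 (standard error 0.050, limma adjusted p 0.0438), close to the threshold. It was lost with no filter (adjusted p 0.112), with the replicate number as a block (0.0811) and when any single library was left out (0.077 to 0.211). The change was -0.16 with the block and between -0.20 and -0.12 with a library left out. With the length and GC trend removed the change was -0.26. In the authors' deposited table FLT1 has a log2 fold change of -0.22 and an adjusted p of 0.0168.

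Of the co-receptors, NRP2 was called and NRP1 was not, and their changes were not tested against each other. NRP2, which carries VEGFC and class 3 semaphorin signals (chromosome 2, 205681990 to 205798133, plus strand), had 1.92 and 1.96 FPKM in the Control libraries and 1.38 and 1.42 FPKM in the ETS1 libraries. Replicates were close and both ETS1 libraries were lower, from a mean of 1.94 ± 0.0246 to 1.40 ± 0.0307 FPKM (SD, n = 2 each), which is 0.720 times the Control mean. The log2 change was -0.30 (standard error 0.054, limma adjusted p 0.00848), and it was -0.45 with a pseudocount of 0.1 and -0.48 by voom. NRP2 was called lower under all 15 alternatives in which it was tested, and of its 50 nearest tested coding genes 34 had a positive change, the opposite direction. In the authors' deposited table its log2 fold change is -0.48 with an adjusted p of 8.9e-07.

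NRP1, the partner of KDR in the response to VEGFA (chromosome 10, 33177492 to 33336262, minus strand), had 3.74 and 3.70 FPKM in the Control libraries and 3.47 and 3.64 FPKM in the ETS1 libraries. The gap between the groups was 0.0527 FPKM, smaller than the distance between the ETS1 libraries. The log2 change of -0.051 (95% interval -0.16 to 0.062) did not pass, with a limma adjusted p of 0.355. It passed with the length and GC trend removed (-0.18, adjusted p 0.0149) and with the local chromosomal median removed (-0.11, adjusted p 0.0483). The ratio of NRP1 to NRP2 was 1.95 and 1.89 in Control and 2.52 and 2.57 with ETS1, higher in both. How reads were assigned by strand is not given in the sources used here. GENCODE 29 has antisense genes whose exons overlap those of VEGFA (188 bases), NRP1 (561 bases) and NRP2 (147 bases), and their reads could not be told apart.

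ANGPTL4 (chromosome 19, 8363289 to 8374373, plus strand) had 9 and 14 reads in Control against 29 and 17 with ETS1, or 0.0898 and 0.128 FPKM against 0.204 and 0.121 FPKM. The groups overlapped, since ETS1 replicate 2 lay between the Control libraries. The pooled rate ratio of 1.48 had an exact 95% interval of 0.881 to 2.57, which covers counting error only and not the spread between libraries, and a difference was not detectable at this depth. With no filter the change was 0.067 with a limma adjusted p of 0.456.

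**Figure D2:**
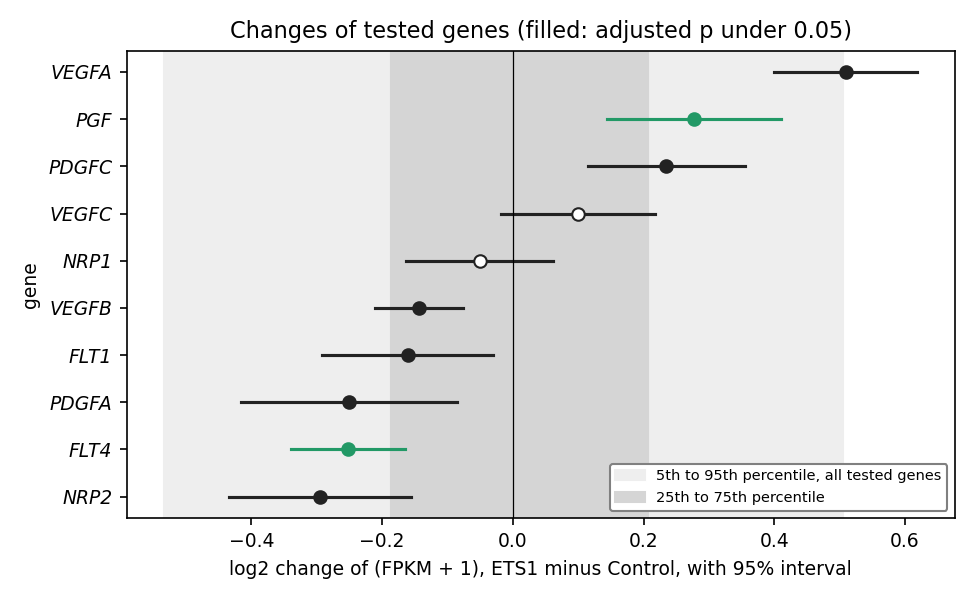
Log2 change of (FPKM + 1) with its 95% interval for the 8 tested genes (black) and for PGF and FLT4 (green), over the spread of all tested genes (grey bands); filled points passed an adjusted p of 0.05. VEGFA lies at the upper edge of the outer band at 0.51, and VEGFC and NRP1 are the open points whose intervals include 0.

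Of the other VEGF ligands and receptors, 2 of 4 were tested. PGF, placental growth factor, had 1.88 and 2.02 FPKM in the Control libraries and 2.56 and 2.58 FPKM in the ETS1 libraries and rose by 0.28 on the log2 scale (limma adjusted p 0.00912). It lost the call without ETS1 replicate 2 (adjusted p 0.0529). FLT4, the VEGFC receptor, had 13.0 and 13.4 FPKM in the Control libraries and 11.0 and 10.8 FPKM in the ETS1 libraries and fell by 0.25 (limma adjusted p 0.00340). It was the most abundant VEGF receptor per the authors' length, at 4.30 and 4.43 times the FLT1 level in the Control libraries. KDR, the main VEGFA receptor of endothelium, had 5 and 6 reads against 10 and 10 reads. PDGFRA and PDGFRB were at most at 0.0836 and 0.0570 FPKM in any library, and none of PDGFD, PDGFRA and PDGFRB reached the filter. The same was true of the 5 angiopoietins and TIE receptors and of the 7 other angiopoietin-like genes, whose highest value was 0.280 FPKM.

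Endothelial cells were looked for because they express several of these genes. Of 11 endothelial markers found in the table, EGFL7 and ESAM reached the filter. EGFL7 was called lower and ESAM was not called, where 28.4% of all tested genes were lower. The summed level of the list was 25.1 and 26.8 FPKM in the Control libraries and 13.1 and 13.7 FPKM in the ETS1 libraries. Nearly all of it was EGFL7, so the sum follows that gene and does not describe the other markers. CDH5 was at 0 in both Control libraries with 2 reads in each ETS1 library, and VWF was at most at 0.0446 FPKM. EGFL7, a secreted factor that endothelium makes in quantity, had 23.7 and 25.3 FPKM in the Control libraries and 11.41 and 11.97 FPKM in the ETS1 libraries. It fell by 1.01 on the log2 scale (limma adjusted p 0.000476), and of its 50 nearest tested coding genes 45 also had a negative change, with a median of -0.35. With that median removed its change was -0.66 and it was still called. In these bulk libraries fewer cells that express a gene and less RNA per cell cannot be told apart.

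Few markers of other cells reached the filter. Of 10 mural cell and fibroblast markers 3 were tested, with COL1A1 higher by 0.30 and 0 lower, which is near the 30.7% higher among all tested genes, and their sum ran from 8.84 to 9.98 FPKM in the Control libraries and from 10.8 to 11.2 FPKM in the ETS1 libraries. Of 9 epithelial and squamous markers 4 were tested, and 3 of these were called where 59.1% of all tested genes were. KRT8 (0.62) and SOX2 (0.25) rose and KRT18 (-0.29) fell, and the call of SOX2 was lost under 6 of 15 alternatives, among them the fits without Control replicate 1, ETS1 replicate 1 or ETS1 replicate 2. The other tested marker was not called, and 5 of the 9 did not reach the filter. Among these 5, KRT5, KRT14 and TP63 were at 0 in both Control libraries and above 0 in at least 1 ETS1 library. The part of these differences in the results was not tested.

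Neuropilin partners were read from a list of 13 semaphorins, plexins and an adaptor, of which 9 were tested, with 3 higher and 0 lower and a median of 0.055, where the median of all tested genes was 0.016. Among all tested genes 30.7% were higher, 28.4% lower and 59.1% called in either direction. SEMA3A, named after its values were seen, did not reach the filter. It had 0.700 and 0.604 FPKM in the Control libraries and 0.422 and 0.494 FPKM in the ETS1 libraries. In the authors' deposited table its log2 fold change is -0.45 with an adjusted p of 0.0087. SEMA3C, a class 3 semaphorin, went from 4.91 and 4.44 FPKM to 5.82 and 6.46 FPKM, a log2 change of 0.33. PLXND1, a plexin of vessel patterning, and PLXNA3 rose by 0.31 and 0.24. Their limma adjusted p-values were 0.0116, 0.00449 and 0.00284. SEMA3C lost its call with no filter (adjusted p 0.0618) and with the length and GC trend removed (0.0528). Its change ran from 0.19 to 0.40 over the 16 alternatives.

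Enzymes that activate or support these growth factors were 9 genes, 8 of them tested, with 2 higher and 1 lower and a median of 0.11. The 3 called of 8 lie under the 59.1% called among all tested genes. LOX, a matrix cross-linking enzyme, rose by 0.29, and ADAMTS3, which cleaves VEGFC, rose by 0.29 from 2.16 and 2.04 FPKM to 2.71 and 2.86 FPKM. FURIN, the convertase that processes VEGFC and PDGF chains, fell by 0.20, from 17.5 and 18.6 FPKM to 15.3 and 15.8 FPKM. All 3 lost their calls when the local chromosomal median was removed, with changes of 0.11, 0.11 and -0.082 in that order. Over the alternatives the list had 0 to 5 members higher, while the share of all genes called higher ran from 10.3% to 33.7% and that called lower from 9.24% to 36.5%. ADAMTS3 also lost its call without ETS1 replicate 2 and FURIN without ETS1 replicate 1.

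The oxygen-sensing and PPAR regulators upstream of VEGFA and ANGPTL4 did not move one way. Of 11 genes 10 were tested, with 2 higher and 2 lower and a median of 0.091, and over the same alternatives 1 to 5 were higher and 1 to 3 lower. The 4 called of 10 lie under the share of 59.1% over all tested genes. VHL, which marks HIF for destruction, went from 19.7 and 19.2 FPKM to 24.7 and 25.8 FPKM and rose by 0.36 (limma adjusted p 0.00149). EPAS1, the gene of HIF-2 alpha, fell by 0.22 (limma adjusted p 0.0216), and its call was lost with no filter and without Control replicate 1, ETS1 replicate 1 or ETS1 replicate 2. PPARG fell by 0.40 (limma adjusted p 0.00114), from 7.60 and 7.70 FPKM to 5.61 and 5.53 FPKM, and was at -0.20 with the local median removed. HIF1A had a log2 difference of 0.13 and did not pass (limma adjusted p 0.0741), and it is named after its values were seen.

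Hypoxia target genes, a list that VEGFA is often placed in, had 9 of 12 tested members higher and 1 lower, with a median of 0.29, where 30.7% of all tested genes were higher and 28.4% lower. DDIT4, an inhibitor of mTOR signalling, went from 9.15 and 9.69 FPKM to 17.1 and 17.8 FPKM, a ratio of 1.85. P4HA2, a collagen prolyl hydroxylase, and ALDOC, a glycolytic enzyme, rose by 0.45 and 0.44 on the log2 scale, and ALDOC was at 0.69 by voom. The member that fell was SLC2A1, the glucose transporter, by 0.30, which was named after its values were seen. CA9, often used as a marker of hypoxia, did not reach the filter. The list has 5 members higher among 8 tested above a mean FPKM of 5, where fewer genes are tested and 31.2% of them were higher.

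Other secreted angiogenic factors were 26 genes, of which 10 were tested, with 5 higher and 2 lower and a median of 0.21, beside 30.7% higher and 28.4% lower among all tested genes. Over the alternatives 2 to 7 were higher and 0 to 4 lower, with all genes again at 10.3% to 33.7% and 9.24% to 36.5%. IL8, a neutrophil chemokine that also acts on endothelium, had 34 reads in each Control library against 400 and 423 with ETS1, or 0.370 and 0.338 FPKM against 3.06 and 3.28 FPKM. It reached the filter only through the ETS1 libraries, so its place among the 5 and in the median is no support for a direction. Its log2 difference of 1.62 depends on the added 1 at this level: it was 2.85 with a pseudocount of 0.1 and 3.15 by voom, and the FPKM ratio was 8.97. CTGF and CYR61, matricellular proteins, rose by 0.75 and 0.46. CTGF was at 1.14 by voom, and CYR61 at 0.26 with the local median removed. ANG (-0.20) and HBEGF (-0.18) fell, and both are named after their values were seen. Their calls were lost under 8 of 15 alternatives each, among them the fits without Control replicate 1, ETS1 replicate 1 or ETS1 replicate 2, and for HBEGF also without Control replicate 2.

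Angiogenesis inhibitors were 15 genes, of which 8 were tested, with 7 higher and 0 lower and a median of 0.24, against 30.7% higher and 28.4% lower among all tested genes. SERPINF1, pigment epithelium-derived factor, had 8.88 and 9.28 FPKM in the Control libraries and 24.0 and 23.1 FPKM in the ETS1 libraries. Both ETS1 libraries were far above the Control libraries, 2.60 times the mean level, and the log2 change was 1.29 (limma adjusted p 0.000369). ADAMTS1, a protease that binds VEGFA, rose by 0.44 and VASH2, a vasohibin, by 0.42; vasohibin 2 is also described as promoting vessel growth. VASH2 was at 0.64 by voom and at 0.27 with the local median removed. The count of higher members was 4 without ETS1 replicate 1 and 3 without ETS1 replicate 2, fits in which 21.8% and 19.9% of all tested genes were higher. It did not move by more than 1 under the other alternatives except at a mean FPKM above 5, where 5 of 5 were higher beside 31.2% of all genes tested there.

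**Figure D3:**
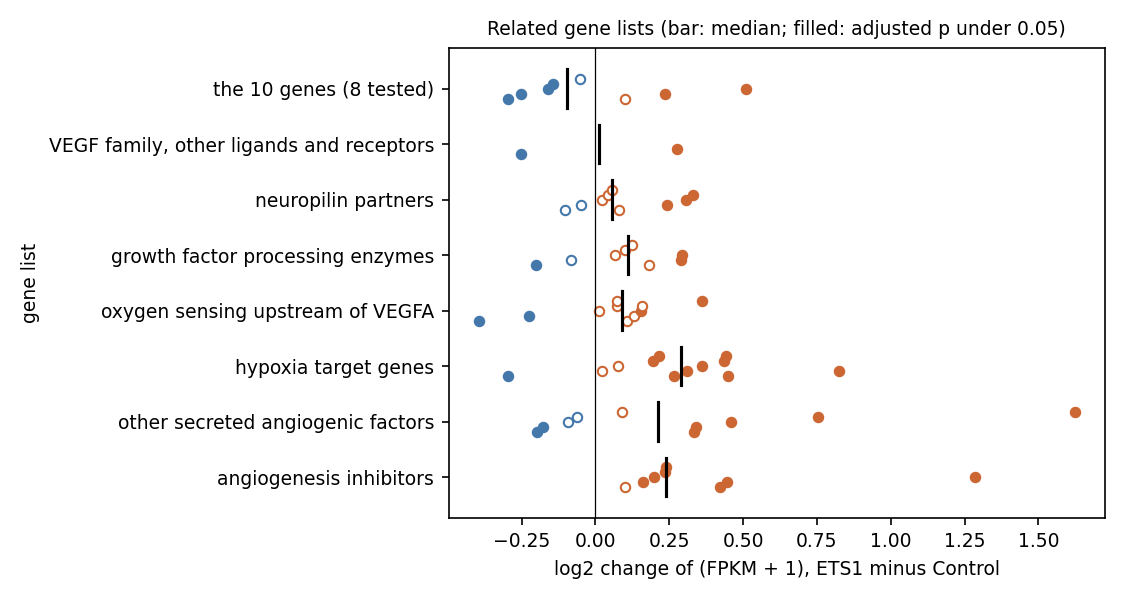
Log2 change of (FPKM + 1) of each tested gene in the related lists; bars are list medians, filled points passed an adjusted p of 0.05, orange is higher and blue lower in the ETS1 libraries. SERPINF1 at 1.29 lies far to the right of VEGFA at 0.51, and the hypoxia list has 9 of 12 tested members filled and higher. IL8 at 1.62 reached the filter only through the ETS1 libraries, its value moves with the pseudocount, and the median of its list includes it.

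Chromosomal neighbours were set beside the changes, because neighbouring genes moved the same way around some of these genes. VEGFA had 50 neighbours with a median of 0.013, 28 of them higher and 22 lower. VEGFB had a local median of -0.055, PDGFA -0.046, NRP1 0.063, NRP2 0.13 and FLT1 0.061. With the local median removed, VEGFA (0.50), NRP2 (-0.43), PDGFA (-0.20), FLT1 (-0.22) and VEGFB (-0.088) were still called, while PDGFC was not. PDGFC and VEGFC lie on the same chromosome and share 20 of their neighbours, so their local medians are not separate observations, and the farthest neighbours are 16.4 and 18.0 Mb away. The part of these regional shifts in the results was not tested.

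**Figure D4:**
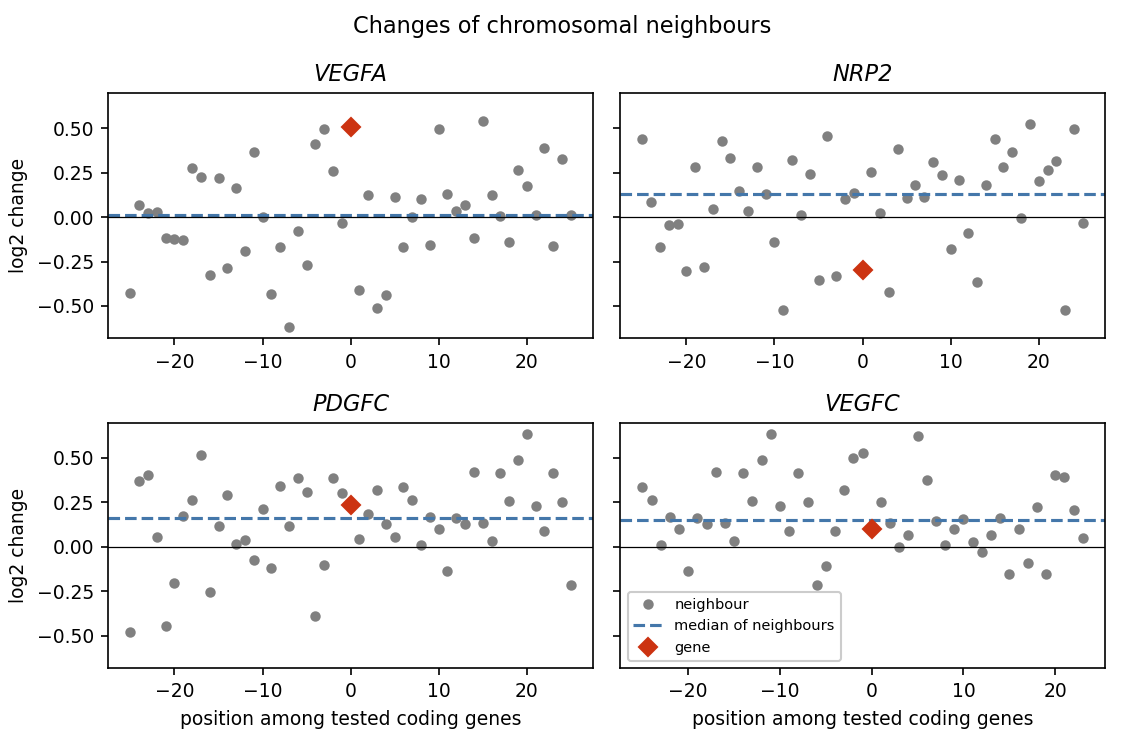
Log2 change of the up to 50 nearest tested coding genes (grey) around VEGFA, NRP2, PDGFC and VEGFC (red diamonds), by position in gene order along the chromosome; the dashed line is the neighbours' median. PDGFC and VEGFC lie close to their neighbours' medians of 0.16 and 0.15, while VEGFA and NRP2 lie away from 0.013 and 0.13. The PDGFC and VEGFC sets share 20 genes.

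The 3 genes whose profile over the 4 libraries was most like that of VEGFA, by the Euclidean distance of centred log2(FPKM + 1) values among 11619 tested genes with an official symbol, were CICP14 (distance 0.0147), COL9A3 (0.0162) and KIFC1 (0.0207). The median distance was 0.496. KIFC1, a mitotic kinesin, had 29.01 and 30.71 FPKM in the Control libraries and 43.4 and 42.8 FPKM in the ETS1 libraries. CICP14 is a pseudogene whose reads can be shared with its copies, and COL9A3 is a collagen chain with 0.926 and 1.01 FPKM in Control and 1.83 and 1.74 FPKM with ETS1, which reached the filter only through the ETS1 libraries. With 4 libraries in 2 groups, such likeness describes mainly the size of the difference between groups.

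**Figure D5:**
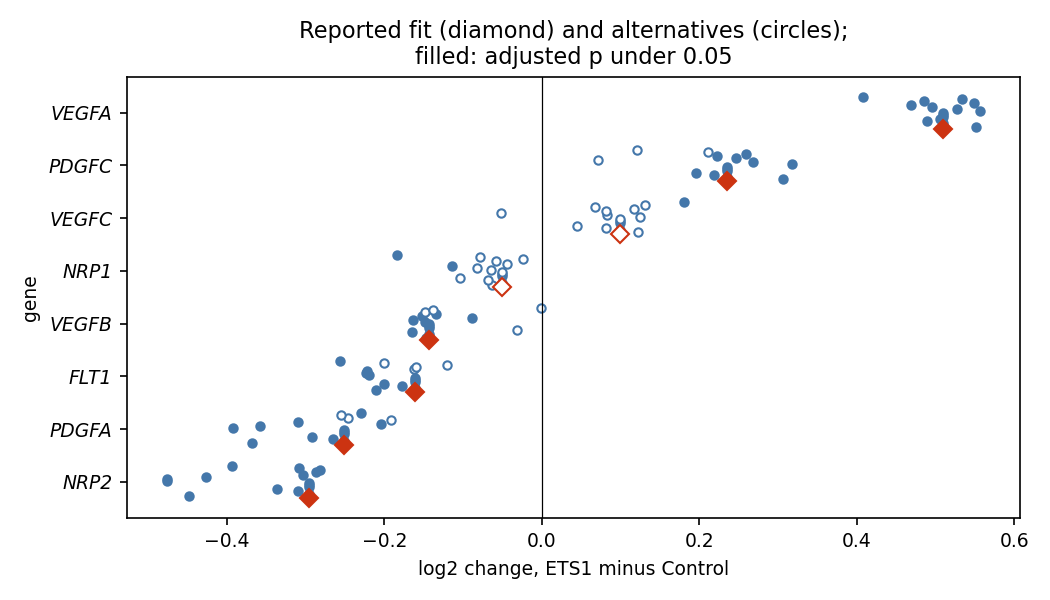
Log2 change of each of the 8 tested genes in the reported fit (red diamond) and under each alternative (blue circles), filled where the adjusted p was under 0.05. VEGFA (0.41 to 0.56) and NRP2 (-0.48 to -0.28) stay filled throughout, FLT1 and PDGFA lose their calls under 6 and 4 of 15 alternatives, and VEGFC crosses 0 under 1.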

How the data were processed

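RNA of 4 TE5 libraries (2 Control, 2 ETS1) was sequenced, and groups were taken from the sample titles. The authors deposited FPKM values for each library; HISAT2, HTSeq, DESeq2 and the build hg38/GRCh38 are named per the submitters' processing notes, and versions, annotation and strand setting are not given in the sources used here. A second table holds the authors' comparison of 16652 genes: a signal that is the mean normalized count of each gene over all 4 libraries as the authors computed it, log2 fold changes with standard errors, on the authors' log2 scale, and the authors' p-value and adjusted p-value, all named per the file headers. No adjusted p-value is given for 969 genes, and whether fold changes were shrunk is not stated.

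FPKM steps and the mean normalized counts gave whole reads (within 0.001) for 99.6% of the compared genes, and with them library totals and gene lengths. The fit was limma 3.58.1 (R 4.3.3) on log2(FPKM + 1) with an intensity trend, a group term, a mean FPKM of at least 1, two-sided tests and Benjamini-Hochberg adjustment over 14306 genes. Changes on this scale understate those of low genes. Local medians used the 25 nearest tested protein-coding genes on each side (GENCODE 29). The text names the 10 genes, ETS1, up to 3 called genes of each list with the largest absolute change, the 3 profiles nearest to VEGFA, and markers near 0. Outside that rule, HIF1A, SLC2A1, ANG, HBEGF and SEMA3A are named after their values were seen, and ESAM because it reached the filter. The genes and lists were chosen with earlier results of these data known. Of 12 endothelial markers 11 were matched by name; PECAM1 was not analysed here. The result of one marker list is not reported here. Alternatives covered the pseudocount, the filter (none or stricter), 2 scalings, a block for the replicate number, 2 priors on the variance, voom on recovered reads, the authors' deposited values, removal of the local median, and leaving out each library; removal of a length and GC trend and the rescaling of levels to coding transcripts were added after seeing the data. Intervals cover counting error only where so named.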

Additional observations from a re-analysis of the deposited data

How the results depend on the processing

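VEGFA and NRP2 kept their direction and call under each alternative in which they were tested (16 and 15). Of the 10 genes, 2 were called higher and 4 lower. Above a mean FPKM of 5 these counts were 1 and 1, with only VEGFA and VEGFB tested. Of all genes tested above that level, 31.2% were higher and 36.5% lower. With the local chromosomal median removed 1 was higher and 5 lower, NRP1 joining the lower ones and PDGFC losing its call, where 32.2% and 33.0% of all genes were. With no filter 2 were higher and 2 lower, where 10.3% and 9.24% of all genes were. Leaving out each library in turn reversed the sign of none of the tested genes among the 10. VEGFA then ran from 0.47 to 0.55, PDGFC from 0.21 to 0.26 and VEGFC from 0.067 to 0.13. NRP2 ran from -0.31 to -0.28, PDGFA from -0.31 to -0.19 and FLT1 from -0.20 to -0.12. VEGFB ran from -0.15 to -0.13 and NRP1 from -0.078 to -0.023. Over all tested genes, 4394 were called higher and 4057 lower. The higher count was 2562 of 8215 tested above a mean FPKM of 5, and 2845 to 3962 when a library was left out, lowest without ETS1 replicate 2. VEGFC reversed to -0.052 when the local chromosomal median was removed; the cause was not tested. With the replicate number as a block, 3 genes were lower and 2 higher, FLT1 losing its call, and over all tested genes 3712 were higher and 3571 lower. Deviations of the libraries numbered 1 from their group means correlated at -0.0456 between groups across genes, so the numbers do not show a pairing. Trimmed-mean scaling and quantile normalization moved the median of all genes by -0.018 and -0.0059, and the latter took VEGFB to -0.032 and ended its call (adjusted p 0.335). Genes with few reads (PDGFB, ANGPTL4, KDR) are limited by depth.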
